A study of Mus musculus with 6 samples.

Results

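The 10 genes described here encode the MHC class II machinery of the mouse. They were chosen by gene symbol as *H2-Aa*, *H2-Ab1*, *H2-Eb1*, *H2-DMa*, *H2-DMb1*, *H2-DMb2*, *H2-Oa*, *H2-Ob*, *Cd74* and *Ciita*, and all 10 were found among the 24346 gene symbols of the data. RNA-Seq was performed on EGFP+ osteoclast precursors sorted from the calvaria of 6 CX3CR1-EGFP mice, in which a reporter placed in the *Cx3cr1* gene marks cells of the monocyte lineage. Every mouse carried the reporter and had lipopolysaccharide (LPS) injected at 20 mg/kg into the periosteum of the calvaria. Of the 6 mice, 3 were given the JAK1-selective inhibitor ABT-317 at 60 mg/kg and 3 were given vehicle, each with 2 doses per day over 5 days. No uninjected mice were analysed here, so the values do not show what LPS itself did. The ages of the mice used for RNA-Seq are not given in the sources used here.

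MHC class II molecules carry peptides from engulfed material to the surface of antigen presenting cells, where CD4+ T cells read them. An alpha and a beta chain form the peptide groove, the invariant chain CD74 fills and guides the new molecule to the endosome, H2-DM exchanges the remnant of CD74 for a peptide, and H2-DO restrains H2-DM. CIITA, a coactivator that does not itself bind DNA, switches the genes on together at promoters that share an X box and a Y box, and interferon-gamma induces it through JAK1 and JAK2. In the monocyte lineage, class II is known to be low in most monocytes and higher in macrophages and dendritic cells.

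The 8 *H2* genes lie in the MHC on chromosome 17, from 34092340 (*H2-Oa*) to 34316674 (*H2-Eb1*) on GRCm38 in GENCODE M21, the assembly that the submitters' processing notes call mm10. *H2-Ab1* spans 34257689 to 34269419, *H2-Aa* spans 34282744 to 34287823 on the minus strand, and *H2-Eb1* starts at 34305867. *Ciita* is on chromosome 16 (10480059 to 10528418). Whether reads were assigned by strand is not given in the sources used here, so reads from antisense genes that overlap *H2-DMa*, *H2-Eb1*, *H2-Oa* and *Ciita* could not be told apart. *H2-DMb1* and *H2-DMb2* are neighbouring copies of one gene, and the division of reads between them is uncertain.

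Promoter sequences are shown because the members are known to be switched on through shared boxes, and their letters can be set beside the values that follow. RefSeq promoters (GRCm38.p6) were matched for 7 of the 10 members, and none for *H2-Ab1*, *Cd74* and *Ciita*, whose promoters were therefore not searched. The sequences are 100 bases long and end 26 bases before the transcription start, read 5′ to 3′ on the strand of the gene, and capitals mark ATTGG (the core of the Y box), ACNNNTGAT (letters taken from the X box of *H2-Eb1* after the promoters were read) and TGACGTCA (the cyclic AMP response element), each searched on both strands.
H2-Eb1, chr17:34305742-34305841, plus strand: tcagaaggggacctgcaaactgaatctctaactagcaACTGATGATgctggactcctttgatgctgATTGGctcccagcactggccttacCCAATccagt
H2-Aa, chr17:34287849-34287948, minus strand: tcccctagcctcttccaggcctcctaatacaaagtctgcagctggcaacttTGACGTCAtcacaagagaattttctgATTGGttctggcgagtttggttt
H2-DMb1, chr17:34153066-34153165, plus strand: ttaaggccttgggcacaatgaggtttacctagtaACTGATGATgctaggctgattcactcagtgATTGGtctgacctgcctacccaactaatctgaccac
H2-DMb2, chr17:34145124-34145223, plus strand: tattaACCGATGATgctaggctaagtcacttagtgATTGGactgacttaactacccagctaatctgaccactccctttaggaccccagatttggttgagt
H2-Ob, chr17:34238780-34238879, plus strand: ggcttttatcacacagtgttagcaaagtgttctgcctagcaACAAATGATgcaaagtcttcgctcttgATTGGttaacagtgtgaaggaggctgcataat
H2-DMa, chr17:34122707-34122806, plus strand: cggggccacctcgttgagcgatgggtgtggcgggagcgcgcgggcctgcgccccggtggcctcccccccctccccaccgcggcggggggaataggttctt

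In *H2-Eb1*, *H2-DMb1*, *H2-DMb2* and *H2-Ob*, the X box letters were followed by ATTGG after 20, 21, 21 and 18 bases. In *H2-Aa*, TGACGTCA was followed by ATTGG after 18 bases. *H2-Oa* held ATTGG from 43 to 39 bases before its start and no match to the other motifs, and the *H2-DMa* window shown held no match to any of them. A second RefSeq start of *H2-DMa* had ATTGG farther upstream, from 198 to 194 bases before it. Both windows lie inside the GENCODE span of *H2-DMa* (34119541 to 34139101), which overlaps *Brd2* on the opposite strand. The *H2-DMb2* window also lies inside the GENCODE span of its gene (34143307 to 34151555), as does most of the *H2-DMb1* window (span from 34153072). Other starts of *H2-DMa* were not searched, so the lack of a match does not show that the gene lacks these boxes. Over all 32851 promoters, searched over the 250 bases before the start, 33.8% held ATTGG, 6.91% held ACNNNTGAT and 1.55% held TGACGTCA. The X box letters with ATTGG within 30 bases behind them on the gene strand were found in 35 promoters (0.107%), of which 4 were those of members. Of these 4, *H2-Eb1* gave the letters and was certain to hold them, and *H2-DMb1* and *H2-DMb2* are copies of one gene. A match of letters is a description of these windows and does not show that a factor bound there.

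Values are FPKM as deposited, a level scaled for the length of the transcript and the size of the library. The FPKM of a library summed to between 688372 and 775790 over all genes, and between 10361 and 10439 genes reached an FPKM of 1. Read counts were not used here, and no counting intervals are given. Of the monocyte lineage genes, all libraries held *Ly6c2* (2751 to 4617 FPKM), *Csf1r* (355 to 422) and *Cx3cr1* (15.5 to 36.1), and *Mpo*, a gene of granulocyte progenitors, was also abundant (1650 to 6106). Vehicle-treated mouse 3 stood apart, with the lowest Pearson correlations of log2(FPKM + 1) with other mice over all genes (0.983 to 0.989). It had the lowest *Ly6c2*, *Cx3cr1* and *Mpo* of the 6 mice, so the results that changed most when it was left out are given with and without it.

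The groups were compared on log2(FPKM + 1) with limma over the 11301 genes that reached an FPKM of 1 in at least 1 mouse, and all 10 members were among them. At an adjusted p under 0.05, 15 of all tested genes differed (0.133%), and 0 of the 10 members did. At an unadjusted p under 0.05, 5 members were lower with JAK inhibitor, and 0 were higher. The 5 were *H2-Aa*, *H2-Ab1*, *H2-Eb1*, *Cd74* and *H2-Oa*, against a background of 9.4% of all tested genes that were lower and 6.57% that were higher by the same rule. Their unadjusted p in limma was 0.00666 for *H2-Aa*, 0.0196 for *H2-Ab1*, 0.00711 for *H2-Eb1*, 0.0130 for *Cd74* and 0.0259 for *H2-Oa*. The number of lower members was 3 when JAK inhibitor-treated mouse 2, vehicle-treated mouse 1 or vehicle-treated mouse 2 was omitted, and *H2-Aa* and *H2-Eb1* were among them each time. The median log2 difference was -0.51 over the members and -0.004 over all tested genes. Without vehicle-treated mouse 3, 4 members (*H2-Aa*, *H2-Ab1*, *H2-Eb1* and *Cd74*) passed the adjusted threshold in limma, where 94 of 11130 tested genes (0.845%) did. In that comparison, *H2-DMb2* and *H2-Oa* were also lower at an unadjusted p under 0.05, which made 6 members beside 8.12% of all tested genes. Vehicle-treated mouse 3 was the lowest of its group in the 4 genes past the adjusted threshold, so leaving it out widened their differences. With any other single mouse left out, 0 members passed the adjusted threshold, although 95 genes did so without vehicle-treated mouse 2. Fewer cells of a type and less RNA per cell cannot be told apart in these bulk samples.

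**Figure D1:**
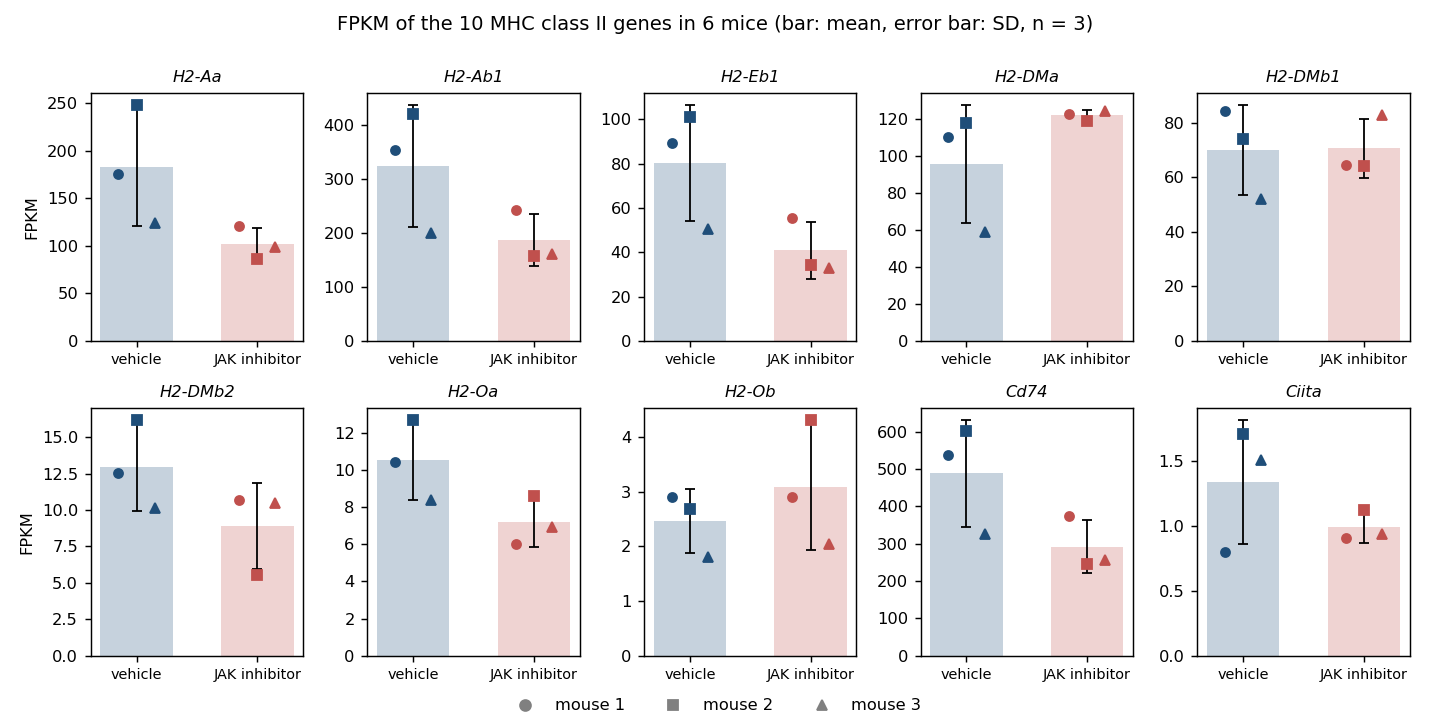
FPKM of each of the 10 genes (linear axis from 0) in 3 vehicle-treated and 3 JAK inhibitor-treated mice; points are single mice, bars are means and error bars are SD (n = 3). The *H2-Aa* values do not overlap between the groups (124 FPKM or more with vehicle, 120.4 or less with JAK inhibitor), whereas *H2-DMa* lies between 119 and 124 FPKM in the JAK inhibitor-treated mice and reaches 117 with vehicle.

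The 3 genes of the peptide-binding chains were lower with JAK inhibitor. *H2-Aa*, the alpha chain of the I-A molecule, had 176, 248 and 124 FPKM with vehicle (mice 1 to 3 in this order, here and below) and 120.4, 86.0 and 98.6 FPKM with JAK inhibitor. The groups did not overlap, although vehicle-treated mouse 3 and JAK inhibitor-treated mouse 1 were close. Groups that did not overlap in this direction were found for 12.1% of all tested genes, and *H2-Aa* was the 1 member among them. The means of *H2-Aa* were 183 ± 62.2 and 102 ± 17.4 FPKM (SD, n = 3), a log2 difference of -0.80 (standard error 0.23, 95% interval -1.31 to -0.28, adjusted p = 0.157 in limma). The exact 2-sided permutation test on *H2-Aa* gave p = 0.1, below which groups of 3 cannot go.

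*H2-Ab1*, the beta chain that pairs with it, had an FPKM of 355, 420.4 and 199 with vehicle and of 242, 157 and 162 with JAK inhibitor. Its groups overlapped, since JAK inhibitor-treated mouse 1 was above vehicle-treated mouse 3. The means of *H2-Ab1* were 325 ± 113 and 187 ± 47.9 FPKM (SD, n = 3), with a log2 difference of -0.76 (standard error 0.27, 95% interval -1.36 to -0.15, adjusted p = 0.218 in limma). *H2-Eb1*, the beta chain of the I-E molecule, had an FPKM of 89.4, 101 and 50.7 with vehicle and of 55.6, 34.2 and 32.9 with JAK inhibitor. Here too JAK inhibitor-treated mouse 1 was above vehicle-treated mouse 3. Of the members, *H2-Eb1* had the log2 difference farthest from 0, at -0.94 (standard error 0.27, 95% interval -1.55 to -0.33, adjusted p = 0.159 in limma). *H2-Ea-ps*, the gene of the alpha chain partner of *H2-Eb1*, which its symbol marks as a pseudogene, was listed at 0 in 5 mice and at 0.042 FPKM in JAK inhibitor-treated mouse 2.

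*Cd74*, the invariant chain, had the highest level of the members in every mouse, at 538, 601 and 327 FPKM with vehicle and 374, 245 and 256 FPKM with JAK inhibitor. The means were 489 ± 143 and 292 ± 71.1 FPKM (SD, n = 3), and the log2 difference of *Cd74* was -0.72 (standard error 0.23, 95% interval -1.25 to -0.19, adjusted p = 0.192 in limma). As for *H2-Ab1* and *H2-Eb1*, JAK inhibitor-treated mouse 1 was above vehicle-treated mouse 3 and the other mice were in the order of their groups. Without vehicle-treated mouse 3, the log2 differences were -1.04 for *H2-Aa*, -1.07 for *H2-Ab1*, -1.24 for *H2-Eb1* and -0.99 for *Cd74*, with adjusted p between 0.0278 and 0.0287 in limma. This omission gave the largest differences. The smallest came without vehicle-treated mouse 2, at -0.55 for *H2-Aa*, -0.54 for *H2-Ab1*, -0.75 for *H2-Eb1* and -0.55 for *Cd74*.

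None of the 3 genes of the H2-DM peptide exchanger passed an unadjusted p of 0.05 with all 6 mice, and their differences were not of 1 sign. *H2-DMa*, its alpha chain, had an FPKM of 110.1, 117 and 58.7 with vehicle and of 122, 119 and 124 with JAK inhibitor. All JAK inhibitor-treated mice were above all vehicle-treated mice, as were 9.92% of tested genes, by a small margin over vehicle-treated mice 1 and 2 and a larger one over mouse 3. The log2 difference of *H2-DMa* was 0.41 (standard error 0.23, 95% interval -0.10 to 0.92, adjusted p = 0.417 in limma, exact 2-sided permutation p = 0.1), and it was 0.10 without vehicle-treated mouse 3. It was 0.59 without vehicle-treated mouse 2 (unadjusted p = 0.0273 in limma) and 0.55 without vehicle-treated mouse 1 (unadjusted p = 0.0558 in limma). *H2-DMb1*, a beta chain of H2-DM, had an FPKM of 84.3, 73.9 and 51.9 with vehicle and of 64.6, 64.1 and 82.9 with JAK inhibitor, so the ranges were nearly the same. Its log2 difference was 0.03 (95% interval -0.38 to 0.43, adjusted p = 0.958 in limma), and -0.17 without vehicle-treated mouse 3. *H2-DMb2*, the other beta chain copy, was present at lower levels, with an FPKM of 12.5, 16.2 and 10.2 against 10.7, 5.51 and 10.5. JAK inhibitor-treated mouse 2 stood below the other 5 mice in *H2-DMb2*, whose log2 difference was -0.52 (standard error 0.25, 95% interval -1.09 to 0.04, adjusted p = 0.352 in limma). Without this mouse it was -0.25 (unadjusted p = 0.254 in limma).

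The H2-DO genes, best known from B cells, had low levels. *H2-Oa*, the alpha chain, had an FPKM of 10.4, 12.7 and 8.40 with vehicle and of 6.01, 8.58 and 6.92 with JAK inhibitor, and only JAK inhibitor-treated mouse 2 reached into the vehicle range. The log2 difference of *H2-Oa* was -0.49 (standard error 0.18, 95% interval -0.91 to -0.07, adjusted p = 0.242 in limma). *H2-Ob*, the beta chain, had an FPKM of 2.91, 2.69 and 1.81 with vehicle and of 2.90, 4.32 and 2.04 with JAK inhibitor, a log2 difference of 0.21 (95% interval -0.35 to 0.77, adjusted p = 0.723 in limma) with overlapping groups. The difference of *H2-Ob* rested on JAK inhibitor-treated mouse 2, since it was 0.003 without this mouse and 0.07 without vehicle-treated mouse 3. The ratio of *H2-Oa* to *H2-Ob* was 3.59, 4.73 and 4.64 with vehicle and 2.08, 1.99 and 3.40 with JAK inhibitor, without overlap (exact 2-sided permutation p = 0.1), and it was chosen after the values were seen. Of all tested genes, 4.63% had a ratio to *H2-Ob* that was lower without overlap.

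*Ciita*, the coactivator of the family, was near the lower limit of the filter, at 0.80, 1.71 and 1.51 FPKM with vehicle and 0.91, 1.12 and 0.94 FPKM with JAK inhibitor. Vehicle-treated mouse 1 had the lowest *Ciita* of all mice and at the same time the second highest *H2-Ab1* and *Cd74*. The log2 difference of *Ciita* was -0.21 (95% interval -0.73 to 0.31, adjusted p = 0.699 in limma), and at this level neither a difference nor its absence could be shown.

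**Figure D2:**
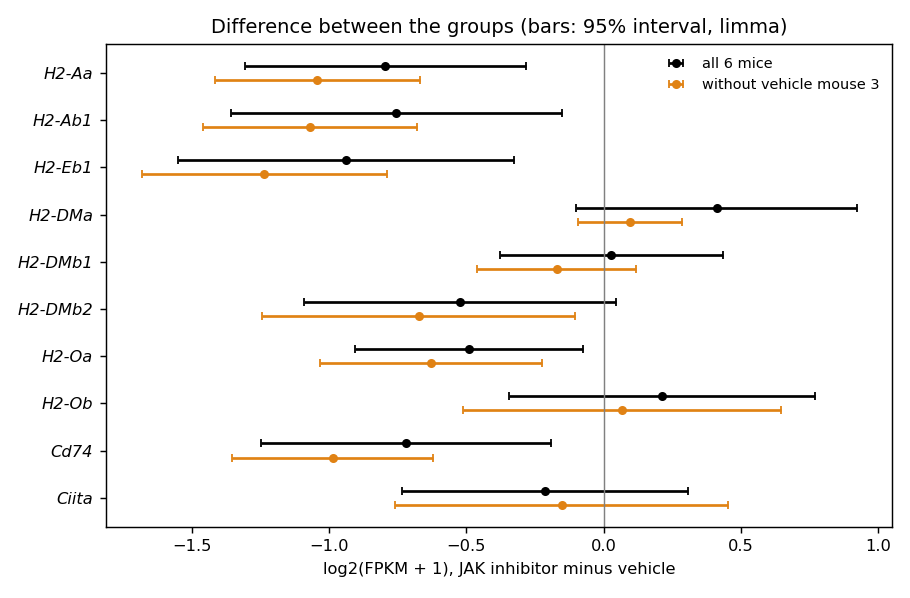
Difference in log2(FPKM + 1) between JAK inhibitor- and vehicle-treated mice for each of the 10 genes, with 95% intervals from limma (bars), over all 6 mice (black) and without vehicle-treated mouse 3 (orange). The intervals of *H2-Aa*, *H2-Ab1*, *H2-Eb1*, *Cd74* and *H2-Oa* lie below 0 in both comparisons, and that of *H2-DMb2* does so only without this mouse.

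The chain genes and *Cd74* varied together from mouse to mouse, also within a group. *H2-Ab1* and *Cd74* put the 6 mice in the same order, with vehicle-treated mice 2 and 1 first, then JAK inhibitor-treated mouse 1, vehicle-treated mouse 3 and JAK inhibitor-treated mice 3 and 2. Of the 11301 tested genes, 9 had this order, *H2-Ab1* and *Cd74* included, and whether this is more than for other orders was not tested. While the level of *H2-Ab1* varied 2.68-fold between the lowest and the highest mouse and that of *Cd74* varied 2.45-fold, the ratio of *Cd74* to *H2-Ab1* stayed between 1.43 and 1.64. Likewise, the ratio of *H2-Ab1* to *H2-Aa* stayed between 1.60 and 2.02. The ratio of *H2-Ab1* to *H2-Eb1* varied as little, between 3.93 and 4.91, but differed between the groups without overlap, at 3.93 to 4.17 with vehicle and 4.36 to 4.91 with JAK inhibitor (exact 2-sided permutation p = 0.1), as the ratios to *H2-Eb1* of 34.4% of all tested genes did in this direction.

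Over the 6 mice, *Cd74* and *H2-Ab1* had a Pearson r of 0.997 on the log2(FPKM + 1) scale (exact permutation p = 0.00139, adjusted p = 0.00834 over 9 members compared with *Cd74*) and a Spearman rho of 1 (exact permutation p = 0.00278, adjusted p = 0.025). For *H2-Eb1* r was 0.996 (exact permutation p = 0.00278, adjusted p = 0.00834) and rho was 0.943 (exact permutation p = 0.0167, adjusted p = 0.0376). For *H2-Aa* r was 0.967 and rho was 0.943, with the same permutation and adjusted p. Without vehicle-treated mice 1 and 2, the mice farthest from the median of *Cd74*, r was 0.991 for *H2-Ab1*, 0.98 for *H2-Eb1* and 0.914 for *H2-Aa* over 4 mice. The relation also held for the deviations from the group means, with r of 0.997, 0.994 and 0.928.

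*H2-DMb2* followed *Cd74* less closely, with an r of 0.827 (exact permutation p = 0.0139, adjusted p = 0.0313) and a rho of 0.943 (exact permutation p = 0.0167, adjusted p = 0.0376). Its r was 0.632 over the 4 mice without vehicle-treated mice 1 and 2, and 0.698 for the deviations from the group means. The other members had r between -0.0559 (*H2-Ob*) and 0.685 (*H2-Oa*), and none passed 0.05 in the permutation test. *Ciita* had an r of 0.224 and *H2-DMa* of 0.0621. For the deviations from the group means, r was 0.82 for *H2-DMa*, 0.523 for *H2-DMb1*, 0.33 for *H2-Ob*, 0.275 for *H2-Oa* and -0.238 for *Ciita*. *H2-DMa* was level in 5 mice and low in vehicle-treated mouse 3, where it had 58.7 FPKM.

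**Figure D3:**
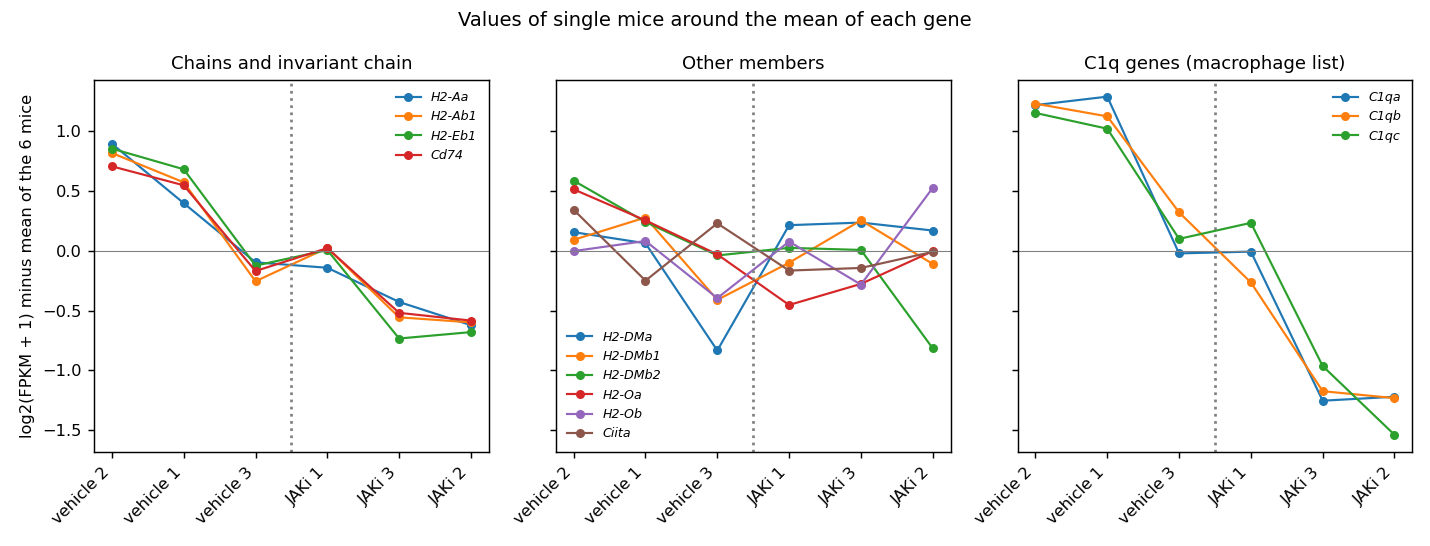
log2(FPKM + 1) of single mice minus the mean of the 6 mice for *H2-Aa*, *H2-Ab1*, *H2-Eb1* and *Cd74* (left), the other members (middle) and the complement genes *C1qa*, *C1qb* and *C1qc* (right); JAKi, JAK inhibitor, and the dotted line parts the groups. The 4 lines on the left nearly coincide, the lines in the middle do not, and the C1q lines follow the left panel over a wider range.

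Since both groups of genes were measured in the same library, their ratio does not depend on how the libraries were scaled. This comparison was chosen after the values were seen. The ratio of *H2-Ab1* to *H2-DMa* was 3.22, 3.58 and 3.40 with vehicle and 1.98, 1.32 and 1.30 with JAK inhibitor. Vehicle-treated mouse 3, low in both genes, had a ratio between those of the other vehicle-treated mice. The geometric mean of this ratio was 2.26-fold higher with vehicle, and it was 2.33-fold higher for *H2-Aa*, 2.59-fold for *H2-Eb1* and 2.2-fold for *Cd74*. None of these 4 ratios overlapped between the groups (exact 2-sided permutation test, p = 0.1 each, the smallest possible). The comparison includes the difference of *H2-DMa* itself, and 25.4% of all tested genes had a ratio to *H2-DMa* that was lower without overlap. Over *H2-DMb1*, the ratios of the same 4 genes were 1.69- to 1.98-fold higher with vehicle, again without overlap, as were the ratios of 4.46% of all tested genes.

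**Figure D4:**
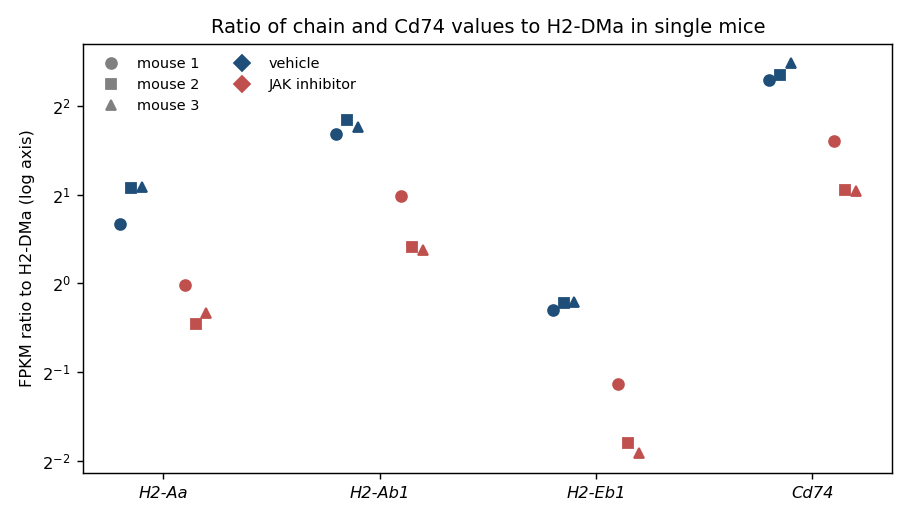
Ratio of the FPKM of *H2-Aa*, *H2-Ab1*, *H2-Eb1* and *Cd74* to that of *H2-DMa* in single mice (log axis, base 2). For *H2-Ab1* the vehicle-treated mice lie between 3.22 and 3.58 and the JAK inhibitor-treated mice between 1.30 and 1.98.

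Genes that control class II transcription were examined next, in a list of 15 genes with 15 tested. At an unadjusted p under 0.05, 2 were lower with JAK inhibitor and 2 were higher, 0 passed the adjusted threshold in limma, and the median log2 difference was -0.05. By this unadjusted rule, 9.4% of all tested genes were lower and 6.57% were higher, the background for this and the following lists. *Rfxap*, a subunit of the RFX complex that binds the X box, had 22.5, 23.7 and 26.8 FPKM with vehicle and 18.9, 17.7 and 19.5 with JAK inhibitor, a log2 difference of -0.36 (adjusted p = 0.185 in limma). *Irf1*, an interferon-induced activator of *Ciita*, had a log2 difference of -0.27 (adjusted p = 0.225 in limma), from 51.8 to 56.9 FPKM with vehicle to 41.8 to 48.8 with JAK inhibitor. *Irf8*, a factor of monocyte and dendritic cell development, went the other way, with 180, 205 and 112 FPKM with vehicle and 255, 264 and 236 with JAK inhibitor (log2 difference 0.64, adjusted p = 0.169 in limma, and 0.39 without vehicle-treated mouse 3). *Irf4*, a factor of dendritic cells and B cells, was low, with at most 0.679 FPKM with vehicle and 0.745 to 1.51 with JAK inhibitor. It reached the 1 FPKM of the filter only with JAK inhibitor, so it entered the test only through the group in which it was higher. In this list, the groups did not overlap for 4 lower and 2 higher genes, beside 12.1% and 9.92% of all tested genes. The genes named above were among them, as was *Spi1*, which encodes the factor PU.1. *Spi1* was high in every mouse, at 360 to 387 FPKM with vehicle and 325 to 358 with JAK inhibitor.

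In the interferon-gamma signal list, *Ifng* was listed at 0 in all 6 mice, and 7 of 8 genes were tested. At an unadjusted p under 0.05, *Irf1* was lower, and *Ifngr1*, a chain of the interferon-gamma receptor, was higher with JAK inhibitor (log2 difference 0.25, adjusted p = 0.222 in limma), with 396 to 463 FPKM against 484 to 522. None passed the adjusted threshold in limma, and the median log2 difference was -0.08. *Ifngr2*, the other receptor chain, had 105 to 132 FPKM with vehicle and 108 to 116 with JAK inhibitor.

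Of 19 genes of antigen processing and class II traffic found in the data, 17 were tested, of which 4 were lower and 1 was higher with JAK inhibitor at an unadjusted p under 0.05, and 0 passed the adjusted threshold in limma. The median log2 difference was -0.10. The lower genes were the endosomal enzymes *Ctsl* (cathepsin L, log2 difference -1.13), *Ctsd* (cathepsin D, -0.32), *Lgmn* (legumain, -0.34) and *Ifi30*, a thiol reductase that opens disulfide bonds of antigens (-0.45). *Lgmn* no longer passed without vehicle-treated mouse 3 (log2 difference -0.18, unadjusted p = 0.0953 in limma). *Ctsl* had 52.0, 46.9 and 142 FPKM with vehicle and 30.8, 31.3 and 32.9 with JAK inhibitor, and without vehicle-treated mouse 3, its highest mouse, the log2 difference was smaller at -0.63 and passed the adjusted threshold in limma (adjusted p = 0.0287). *Cst3*, the cathepsin inhibitor cystatin C, was higher, with 1802 to 2795 FPKM with vehicle and 3130 to 3724 with JAK inhibitor (log2 difference 0.55, adjusted p = 0.157 in limma, and 0.37 without vehicle-treated mouse 3). *Ctss*, the cathepsin S that trims CD74, overlapped between the groups, at 1120 to 1351 FPKM with vehicle and 1264 to 1372 with JAK inhibitor, as did the lysosomal membrane gene *Lamp1*, at 611 to 648 and 632 to 695 FPKM. *H2-Eb2*, a further class II beta chain gene, did not exceed 0.181 FPKM.

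Of 9 tested genes of costimulation, 3 were lower and 1 was higher at an unadjusted p under 0.05, 0 passed the adjusted threshold in limma, and the median log2 difference was -0.11. *Cd86*, a ligand of CD28 on T cells, had 20.6, 15.7 and 25.3 FPKM with vehicle and 13.4, 11.1 and 13.4 with JAK inhibitor (log2 difference -0.64, adjusted p = 0.149 in limma). *Cd80*, the related ligand, had a log2 difference of -0.47, and *Icam1*, an adhesion molecule of the contact with T cells, had one of -0.96 (adjusted p = 0.133 in limma). *Pdcd1lg2*, a ligand of the checkpoint receptor PD-1, was higher with JAK inhibitor (log2 difference 0.58). *Cd274*, another such ligand, had 14.95 to 20.8 FPKM with vehicle and 19.7 to 19.9 with JAK inhibitor, and *Tnfsf4* was listed at 0 in every mouse. The groups of the 4 genes that passed did not overlap, as in 12.1% of all tested genes in the lower direction and 9.92% in the higher direction. Vehicle-treated mouse 3, lowest of its group in *H2-Ab1* and *Cd74*, was the highest of all mice in *Cd80*, *Cd86* and *Icam1*. Without vehicle-treated mouse 3, *Cd86* and *Icam1* remained below an unadjusted p of 0.05, and *Cd80* and *Pdcd1lg2* did not.

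Other cells that carry class II were examined through marker lists. Of 11 macrophage markers, 4 were lower with JAK inhibitor and 0 were higher at an unadjusted p under 0.05, beside 9.4% and 6.57% of all tested genes. The median log2 difference was -0.60, and 0 genes passed the adjusted threshold in limma. *C1qb*, a chain of complement C1q that tissue macrophages make, had 163, 176 and 93.3 FPKM with vehicle and 61.8, 31.1 and 32.4 with JAK inhibitor (log2 difference -1.78, adjusted p = 0.0721 in limma), and the groups did not overlap. *C1qa* and *C1qc* had log2 differences of -1.66 and -1.51, and *Mertk*, a receptor for dying cells, of -1.57 (-0.999 without vehicle-treated mouse 3). *C1qa* had 57.3, 54.5 and 22.5 FPKM with vehicle and 22.7, 9.23 and 9.001 with JAK inhibitor, with JAK inhibitor-treated mouse 1 the highest of its group, as it was for *Cd74*. Without vehicle-treated mouse 3, *C1qa* and *C1qb* passed the adjusted threshold in limma (adjusted p = 0.0240 and 0.00909), as the chain genes and *Cd74* did. At an unadjusted p under 0.05, 5 markers were then lower and 1, *Vcam1*, was higher. Of the 11130 genes tested in that comparison, 8.12% were lower and 600 were higher. *Vcam1* had a log2 difference of 0.55 without this mouse (unadjusted p = 0.0484 in limma) and of 0.46 with all mice (unadjusted p = 0.0767 in limma). The other macrophage markers did not all follow. *Cd68* had 397 to 458 FPKM with vehicle and 386 to 427 with JAK inhibitor, and *Adgre1*, which encodes F4/80, had 63.2 to 91.9 and 65.1 to 77.9. *Cd5l* was listed at 0 in 1 mouse of each group. The summed FPKM of the list was 1141 to 1288 with vehicle and 951 to 1021 with JAK inhibitor. Most of this sum was *Cd68* and *Csf1r*, which is also in the monocyte list. Their log2 differences were -0.08 and -0.03, so the sums do not show a fall of the whole list. The part of macrophages among the sorted cells in the class II values was not tested.

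Of 9 tested dendritic cell markers, 0 were lower and 1, *Cd209a*, was higher with JAK inhibitor at an unadjusted p under 0.05, and the summed FPKM was 63.1 to 89.8 with vehicle and 72.8 to 80.3 with JAK inhibitor. *Flt3*, a receptor of dendritic cell progenitors, had 21.3 to 30.4 FPKM with vehicle and 20.3 to 23.8 with JAK inhibitor. *Clec10a* had 11.2 to 23.7 and 18.3 to 21.8, and *Dpp4* had 8.36 to 9.88 and 7.08 to 7.84. *Itgax*, the integrin CD11c, had 5.74, 5.66 and 3.08 FPKM with vehicle and 3.90, 3.70 and 2.15 with JAK inhibitor. Of 7 tested markers of plasmacytoid dendritic cells, 0 passed in either direction. *Bst2* had 35.005 to 59.5 FPKM and *Cox6a2* 2.25 to 19.8 over all mice, and *Siglech* was 2.18 in vehicle-treated mouse 3 and 6.17 to 15.4 FPKM in the other mice. Without vehicle-treated mouse 3, *Itgax* in the first list and *Siglech* and *Klk1* in the second were lower with JAK inhibitor at an unadjusted p under 0.05, and *Cd209a* no longer passed (log2 difference 0.72, against 1.16 with all mice). *Klk1* reached 1 FPKM only in vehicle-treated mouse 2 (1.47), so it entered the test only through the group in which it was higher, and no result is drawn from it. The defining B cell genes *Ms4a1*, *Pax5* and *Ebf1* were listed at 0 in all 6 mice. Of 4 tested B cell markers, 0 passed in either direction, and *Cd79b* (26.7 to 35.4 FPKM) and, at lower levels, *Igll1* and *Vpreb1* (at most 3.61 and 2.16) made up most of the summed FPKM of 29.6 to 36.2 with vehicle and 32.7 to 40.2 with JAK inhibitor.

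In the remaining marker lists, 2 of 10 tested neutrophil markers were lower with JAK inhibitor at an unadjusted p under 0.05 and 3 were higher, beside 9.4% and 6.57% of all tested genes. *Elane* and *Mpo*, of granulocyte progenitors, and *Camp* were on the higher side, and *Mmp8* and *Cxcr2* on the lower side. Of 10 monocyte markers, *Itgam* and *Cd14* were lower, and *Nr4a1*, *Ace* and *Spn*, genes of non-classical monocytes, were higher. The groups overlapped for *Nr4a1* and *Ace*, with vehicle-treated mouse 1 above JAK inhibitor-treated mouse 3. *Treml4* of the same list did not pass and was highest in vehicle-treated mouse 1. Its log2 difference was 0.40 (unadjusted p = 0.123 in limma), and 0.14 without vehicle-treated mouse 3. *Itgam* no longer passed without vehicle-treated mouse 3, with a log2 difference of -0.18 against -0.34 with all mice (unadjusted p = 0.0977 in limma), and that of *Ace* was 0.66 against 1.03. Of the T and NK cell markers 1 (*Nkg7*), and of the erythroid markers 2 (*Hba-a1* and *Klf1*), were higher, and 0 were lower. None of these passed the adjusted threshold in limma with all 6 mice, whereas *Elane*, *Mmp8* and *Nkg7* passed it without vehicle-treated mouse 3. The log2 differences without this mouse were smaller for *Elane* (0.70 against 1.12), *Mpo* (0.53 against 0.93), *Cxcr2* (-0.53 against -0.80) and *Nkg7* (0.57 against 0.92). The summed FPKM was 17157 to 23239 with vehicle and 17258 to 24447 with JAK inhibitor for the neutrophil list, and 3770 to 5561 and 5146 to 5539 for the monocyte list, with its lowest value in vehicle-treated mouse 3. Among the abundant genes of these lists that did not pass, *S100a8* had 4970.4 to 15469 FPKM and *Ccr2* 156 to 200.1, whereas *Ncr1*, *Cd28* and *Hbb-bs* did not exceed 1.71, 1.11 and 3.53. *Nkg7* had 167 to 363 FPKM with vehicle and 489 to 557 with JAK inhibitor, and no other gene of its list exceeded 1.77. *Hba-a1* had 38.6 FPKM in JAK inhibitor-treated mouse 3, 2.64 and 1.96 in mice 1 and 2, and at most 0.064 with vehicle. It thus passed the filter only through the group in which it was higher. Whether T, NK or erythroid cells differed in number was not tested.

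**Figure D5:**
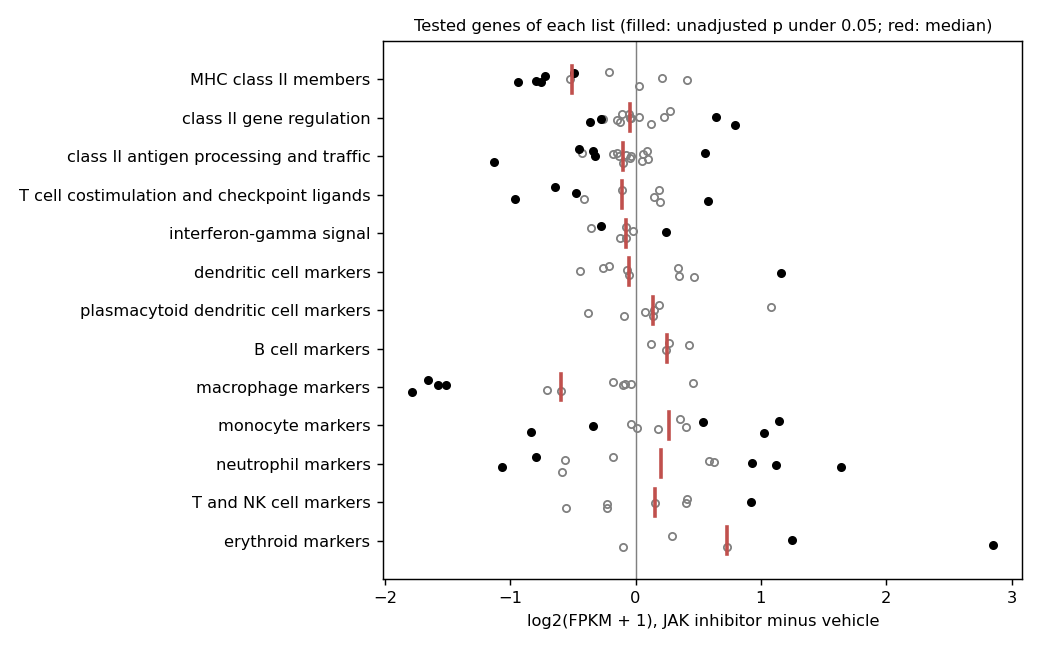
Difference in log2(FPKM + 1), JAK inhibitor minus vehicle, of each tested gene of the members, of 4 pathway lists and of 8 marker lists; filled points have an unadjusted p under 0.05 in limma, and red bars are list medians. The medians of the members (-0.51) and of the macrophage markers (-0.60) lie farthest below 0.

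The genes whose values over the 6 mice were most like the standardized mean of *H2-Aa*, *H2-Ab1*, *H2-Eb1* and *Cd74* were sought among 7733 genes that are no members and have a mean of at least 5 FPKM. The 10 nearest by Pearson r on the log2(FPKM + 1) scale were *Prdx3*, *Glipr2*, *C1qa*, *Pf4*, *Rpl7a*, *Snrpf*, *Cct7*, *Ccl8*, *Hras* and *Mlycd*, with r from 0.986 to 0.956. With 6 mice such values are not rare, and 75 genes (0.97%) had an r above 0.9. Most of the 10 varied little between mice, such as *Prdx3* (69.8 to 88.3 FPKM). The genes *C1qa*, *Pf4*, which encodes platelet factor 4, and *Ccl8*, a chemokine gene, varied widely. *Pf4* had 30.04, 41.4 and 13.6 FPKM with vehicle and 16.3, 4.26 and 3.79 with JAK inhibitor. *Ccl8* had 39.8, 38.3 and 2.36 FPKM with vehicle and 12.6, 0.654 and 0.56 with JAK inhibitor. *C1qc* and *C1qb* were at places 14 and 18 with r of 0.954 and 0.952. Among markers of dendritic and plasmacytoid dendritic cells, the r of *Itgax* was 0.856, that of *Siglech* was 0.513, that of *Clec10a* was 0.109 and that of *Flt3* was 0.0461. The r of *Adgre1* was 0.43 and that of *Cx3cr1* was 0.0664. The ratio of *Cd74* to *C1qb* was 3.29 to 3.51 with vehicle and 6.05 to 7.90 with JAK inhibitor, without overlap (exact 2-sided permutation p = 0.1), as for 82.9% of all tested genes, so *C1qb* differed more between the groups than *Cd74* did. This ratio was chosen after the values were seen.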

How the data were processed

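The authors deposited tables of FPKM for 24346 gene symbols, 1 for each mouse, and 8100 symbols have 0 throughout. The submitters' processing notes list TopHat2 2.0.13, Bowtie2 2.2.3, SAMtools 0.1.19 and Cufflinks 2.2.1 with build mm10, and the study's methods name iDEP. The annotation and any scaling between libraries are not given in the sources used here. The methods name a TruSeq Stranded kit and the labels SMART-Seq HT with Nextera. Genes that reached 1 FPKM in any mouse were tested on log2(FPKM + 1) with limma 3.58.1 in R 4.3.3 (empirical Bayes with a trend, Benjamini-Hochberg over all tested genes, threshold 0.05), which understates the change of low genes. The model was tested on simulated data. Other values were computed in Python 3.11.15 with SciPy 1.17.1, pandas 2.3.3 and NumPy 2.4.6, and plots were drawn with matplotlib 3.10.9. Named genes were all members, list genes with an unadjusted p under 0.05, the 3 of highest mean FPKM in a list or at 0 in every mouse, and the 10 genes most like the chain genes and *Cd74*. The members and lists were chosen with earlier results of these data known. P-values measure the spread between these mice. *Cx3cr1*, *Itgax*, *Klk1*, *Adgre1*, *Cd5l*, *Vcam1*, *Treml4*, *H2-Ea-ps* and *H2-Eb2* were named outside this rule, after their values were seen. Some list genes are not reported here.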

Additional observations from a re-analysis of the deposited data

How the results depend on the processing

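The comparison was repeated under 14 alternatives: a pseudocount of 0.1, no filter, a filter of 1 FPKM in 3 mice, quantile normalization, median ratio scaling, no trend, library weights, a replicate block and each mouse left out. Of the 140 values for the 10 members, 122 kept their direction and their side of an unadjusted p of 0.05, 10 no longer passed it, 5 newly passed it, and 3 reversed. Of the 5, 4 were for *H2-DMb2*, on the lower side, and 1 was for *H2-DMa*, on the higher side, without vehicle-treated mouse 2. All 3 reversals were for *H2-DMb1*: -0.063 with library weights, -0.091 with JAK inhibitor-treated mouse 3 omitted and -0.17 with vehicle-treated mouse 3 omitted (range with 1 mouse left out, -0.17 to 0.17). *H2-Aa* and *H2-Eb1* stayed lower at an unadjusted p under 0.05 in all 14. *H2-Ab1* lost this without a filter and without JAK inhibitor-treated mouse 2 or 3 or vehicle-treated mouse 1 or 2, *Cd74* without JAK inhibitor-treated mouse 2, and *H2-Oa* without JAK inhibitor-treated mouse 1 or 3 or vehicle-treated mouse 1 or 2. The number of members lower by this rule was 3 to 6 with 1 mouse left out (3 without JAK inhibitor-treated mouse 2, vehicle-treated mouse 1 or vehicle-treated mouse 2). The number past the adjusted threshold was 0 to 4, and 4 only without vehicle-treated mouse 3. Over all genes, 15 passed the adjusted threshold, against 2 without a filter, 34 with the filter in 3 mice, 2 without the trend, 63 with library weights, 67 with the replicate block and 3 to 95 with 1 mouse left out. The replicate block changed no call among the members, and the mice share only a number, with correlations of 0.0158, 0.0542 and -0.000164 between the deviations of same-numbered mice. The causes of these shifts were not tested. Without read counts, the depth behind low genes such as *Ciita* and *H2-Ob* is not known here.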
